A study of Mus musculus with 23 samples.

Results

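The genes described here are the Hox cluster genes, that is, every symbol made of Hoxa, Hoxb, Hoxc or Hoxd and a number. All 39 were listed in each of the 3 deposited tables, out of 24918 symbols in all: 11 of the Hoxa, 10 of the Hoxb, 9 of the Hoxc and 9 of the Hoxd cluster. They were measured by RNA-seq in 23 libraries of about 2000 cells each, sorted from mouse mammary tissue or tumours. From wild-type mammary glands of the C57BL6J strain came fetal cells of embryonic day 18, labelled mammary stem cells (fMaSC), and adult basal cells, mature luminal cells and luminal progenitors, with 2 libraries each. PY230, a mouse mammary tumour line on the same strain background, was grown as transplanted tumours in syngeneic mice, which gave basal SOX10 high, luminal SOX10 high and luminal SOX10 low cells with 2 libraries each. Spontaneous tumours of adult C3-1-TAg mice of the FVB strain, which carry the SV40 T antigen as a transgene, gave 5 libraries of SOX10 high and 4 of SOX10 low cells, each of them titled basal. PY230 is a single line. The sources used here give no ages beyond adult, no sort markers and no animal or tumour behind a library, so p-values measure the spread between libraries. The design compares fetal with adult cells, and tumour cells that differ in the transcription factor SOX10.

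HOX proteins are homeodomain transcription factors that give cells their position along the body axis. Their genes lie in 4 clusters, on mouse chromosomes 6 (Hoxa), 11 (Hoxb), 15 (Hoxc) and 2 (Hoxd). Genes with low numbers are expressed earlier and closer to the head than genes with high numbers, and genes of the same number in different clusters are paralogs. Retinoic acid switches on the low-numbered genes in the embryo, and polycomb and trithorax complexes keep the clusters silent or active afterwards. HOX proteins bind DNA together with the PBX, MEIS and PKNOX proteins. In the mouse mammary gland, Hoxa9, Hoxb9 and Hoxd9 together are known to be needed for the growth of the gland in pregnancy.

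Promoter windows are shown for Hoxb4, of the Hoxb genes that were low in PY230 basal SOX10 high cells. They are also shown for Hoxa2 and Hoxa5, of the Hoxa group whose values ran the other way in PY230 tumours. Each is the 250 bases before the RefSeq start on the gene's strand, build GRCm38.p6, while the expression files use mm9. The Hoxb4 window is chr11:96318017-96318266 on the + strand, the Hoxa2 window chr6:52164832-52165081 on the - strand and the Hoxa5 window chr6:52204588-52204837 on the - strand. Capitals mark the retinoic acid receptor motif AGGTCA or the composite HOX and PBX motif TGATNNAT, searched on both strands, and the Hoxa5 window held neither.
Hoxb4: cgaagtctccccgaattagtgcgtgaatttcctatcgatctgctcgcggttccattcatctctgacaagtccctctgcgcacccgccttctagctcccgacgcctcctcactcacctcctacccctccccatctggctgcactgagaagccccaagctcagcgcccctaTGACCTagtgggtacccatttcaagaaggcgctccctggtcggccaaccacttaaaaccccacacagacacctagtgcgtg
Hoxa2: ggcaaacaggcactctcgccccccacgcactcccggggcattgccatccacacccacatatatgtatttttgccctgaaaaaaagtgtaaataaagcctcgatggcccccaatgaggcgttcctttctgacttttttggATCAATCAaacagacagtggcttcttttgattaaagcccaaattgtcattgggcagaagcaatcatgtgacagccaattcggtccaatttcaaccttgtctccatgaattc
Hoxa5: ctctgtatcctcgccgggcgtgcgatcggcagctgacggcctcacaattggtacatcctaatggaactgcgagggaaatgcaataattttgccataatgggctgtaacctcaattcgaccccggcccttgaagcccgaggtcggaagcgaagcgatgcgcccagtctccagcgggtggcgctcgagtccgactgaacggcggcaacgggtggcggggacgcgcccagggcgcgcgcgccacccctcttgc

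Of the 39 genes, 22 had a window in the RefSeq table, 24 windows in all, and Hoxb2 and Hoxb3 had none there. The median GC content was 58.6% in the Hox windows and 52.4% over all 32841 windows, and the median number of CpG dinucleotides was 12.5 and 6. TGATNNAT was found in 4 of the 24 Hox windows (16.7%) and in 7.69% of all windows. AGGTCA was found in 6 (25%) and in 14.03% of all windows. ACAAT, the core that SOX proteins bind, was found in 5 (20.8%) and in 27.7% of all windows. A match describes letters in these windows and shows no binding.

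Values are RPKM, reads scaled to gene length and to the reads of the library, and are compared only within a table because the tables were made separately. A gene was tested where it reached 1 RPKM in at least 2 libraries of its table (4 in the C3-1-TAg table), and differences are on the log2(RPKM + 1) scale, which understates the change of low genes. Adjusted p-values are two-sided, from limma over all genes tested with Benjamini-Hochberg adjustment, and a gene is called at an adjusted p under 0.05. Each library had 10056 to 12504 genes at 1 RPKM or more. Absolute depth is unknown. The spacing of low values gave depths of 1 to 1.83 times that of the first basal SOX10 high library in the PY230 table and of 0.626 to 1.3 times that of the first SOX10 high library in the C3-1-TAg table. Among normal libraries the spacing gave 1 and 0.949 for fMaSC, against 0.386 to 0.626 for the adult libraries, from weaker peaks that held 2.61 to 6.73% of low genes, against 7.68 to 12.7% for C3-1-TAg libraries. Sox10 was at 72.0 and 78.3 RPKM in PY230 basal SOX10 high cells and 101 and 66.9 RPKM in luminal SOX10 high cells, against 13.6 and 11.0 RPKM in luminal SOX10 low cells. In C3-1-TAg tumours it ran from 91.9 to 164 RPKM in SOX10 high and from 2.10 to 40.9 RPKM in SOX10 low libraries, without overlap. Among the normal cells, the summed level of 6 basal markers was 749 and 753 RPKM in fMaSC and 805 and 1718 RPKM in adult basal cells, against 10.4 to 17.7 RPKM over both adult luminal groups. The same basal markers summed to 2700 and 2349 RPKM in PY230 basal SOX10 high cells, against 28.1 to 90.6 RPKM in the PY230 luminal groups. C3-1-TAg libraries carried both basal markers (96.3 to 1010 RPKM) and the luminal keratins Krt8, Krt18 and Krt19 (459.9 to 1720 RPKM summed).

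Most Hox genes were near or at 0. Among the normal cells, 15 of the 39 were at 0 in all 8 libraries, among them Hoxa2, Hoxa4, Hoxa6, Hoxb8, Hoxb13 and every Hoxc and Hoxd gene numbered 11 to 13, and only Hoxb2 and Hoxb3 reached a group mean of 1 RPKM. In PY230 tumours 5 were at 0 throughout (Hoxc12, Hoxd1, Hoxd11, Hoxd12 and Hoxd13) and 5 reached a group mean of 1 RPKM (Hoxa4, Hoxa5, Hoxb2, Hoxb3 and Hoxb4). In C3-1-TAg tumours 4 were at 0 throughout (Hoxc11, Hoxc12, Hoxd12 and Hoxd13), and Hoxb2, Hoxb3 and Hoxb4 reached that mean. Every other member stayed under 1 RPKM in each group mean of its table. A value of 0 means that the gene was listed at 0, not that it is silent. The filter on low values left 2 members to test in the normal table (Hoxb2 and Hoxb3) and 3 each in the PY230 and C3-1-TAg tables (Hoxb2, Hoxb3 and Hoxb4). Hoxb2 was the highest of the 39 in 7 of 8 normal, 4 of 6 PY230 and 6 of 9 C3-1-TAg libraries. The order Hoxb2 over Hoxb3 over Hoxb4 held in 7 of 8, 6 of 6 and 6 of 9 libraries.

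**Figure D1:**
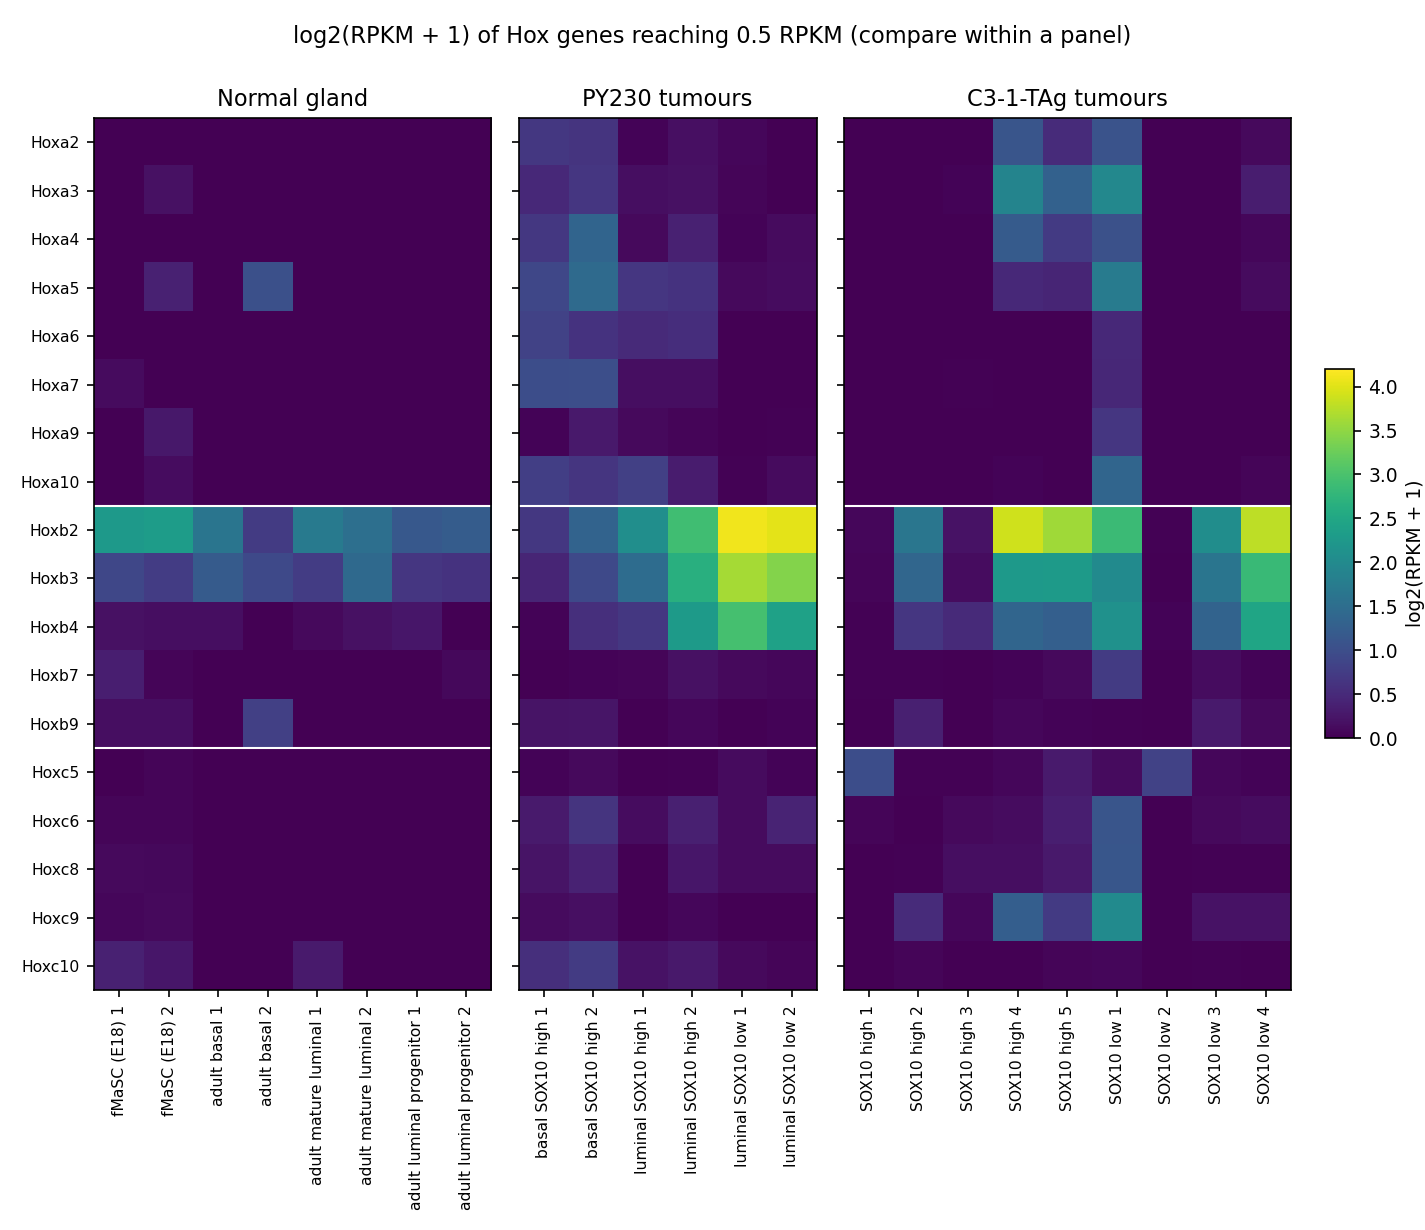
Level of the Hox genes that reached 0.5 RPKM in at least 1 library as log2(RPKM + 1), genes down the page in cluster order and libraries across, in 3 panels that are not comparable with each other. Bright rows are Hoxb2, Hoxb3 and Hoxb4, and the Hoxa block is brightest in the PY230 basal SOX10 high libraries and, among C3-1-TAg tumours, in SOX10 high libraries 4 and 5 and SOX10 low library 1.

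Read counts can be uncertain for genes that overlap. In RefSeq, 10 of the 39 members overlap another member, among them Hoxb3 with Hoxb4 and Hoxa3 with Hoxa4, Hoxa5 and Hoxa6. Counting overlaps with any gene, members included, the number is 20, among them Hoxb2 with the antisense gene Hoxb3os. These overlaps are between spans from gene start to gene end, so they do not show that reads are shared. The libraries do not mark strand, and how reads in shared stretches were assigned is not given in the sources used here.

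Hoxb2 and Hoxb3 had the highest group means of the 39 genes in fetal and adult mammary cells, although Hoxa5 led in basal library 2 (1.03 RPKM), and Hoxb2 was higher in fMaSC than in adult basal cells and luminal progenitors. Hoxb2, a gene that patterns the hindbrain, had 3.84 and 3.98 RPKM in fMaSC, against 2.10 and 0.665 RPKM in adult basal cells, 2.29 and 1.91 RPKM in mature luminal cells and 1.22 and 1.34 RPKM in luminal progenitors. Both fMaSC libraries lay above all 6 adult libraries, as in 29.1% of the 18300 genes above 0 in at least 1 library. Hoxb2 rose in fMaSC by 1.11 on the log2 scale against basal cells (SE 0.31, adjusted p = 0.0162) and by 1.11 against luminal progenitors (SE 0.31, adjusted p = 0.0197). The difference against mature luminal cells was 0.67 (SE 0.31, adjusted p = 0.101). The median difference of all genes tested was 0.27 against basal cells, 0.39 against luminal progenitors and 0.53 against mature luminal cells in the same direction. In a bulk library, fewer cells of a type and less RNA per cell cannot be told apart.

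That made 1 of 2 members tested called higher against basal cells, where 36.9% of the 12553 genes tested were called higher and 23.4% lower. It made 1 of 2 against luminal progenitors, where 35.5% were called higher and 15.0% lower. Against mature luminal cells 0 of 2 were called by limma, where 41.7% were called higher and 14.7% lower, and 0 had an unadjusted p under 0.05. Both Hoxb2 calls were lost without fMaSC library 1 (adjusted p 0.0770 and 0.0942) or fMaSC library 2 (0.0842 and 0.104) and after quantile normalization (0.0515 and 0.113). The call against luminal progenitors was also lost without either luminal progenitor library (0.0854 and 0.0713) and with median-of-ratios scaling (0.0597).

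Hoxb3, which acts in the hindbrain and in thyroid development, was not called between fetal and adult cells by limma without further normalization. It had 0.868 and 0.680 RPKM in fMaSC, against 1.3 and 0.894 RPKM in basal cells, 0.685 and 1.69 RPKM in mature luminal cells and 0.583 and 0.523 RPKM in luminal progenitors. The log2 differences of fMaSC were -0.24 against basal cells (adjusted p = 0.448), 0.19 against luminal progenitors (adjusted p = 0.564) and -0.27 against mature luminal cells (adjusted p = 0.407). Hoxb4, known for its part in blood stem cells, stayed between 0 and 0.190 RPKM in all 8 libraries and was not tested. After quantile normalization 1 of the 2 members tested was called lower in fMaSC than in mature luminal cells. Of the 12553 genes tested, 3246 were called lower there after this normalization, against 1849 without it.

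Low levels of many other Hox genes were listed in fMaSC that the adult libraries mostly lacked. The number of members above 0 was 16 and 19 in the fMaSC libraries, against 5 and 4 in basal, 4 and 4 in mature luminal and 5 and 3 in luminal progenitor libraries. Over all genes, 15496 and 15444 of 18300 were above 0 in the fMaSC libraries, against 13779 to 14498 in the adult libraries. Depth as read from low values was also higher in fMaSC (1 and 0.949, against 0.386 to 0.626 in adult libraries), and its part in these counts was not tested. Hoxc genes summed to 0.564 and 0.434 RPKM in fMaSC, against 0 and 0 in basal cells, 0.233 and 0 in mature luminal cells and 0 and 0 in luminal progenitors. Hoxd genes summed to 0.433 and 0.341 RPKM in fMaSC, against 0.172 and 0 in basal cells, 0 and 0.105 in mature luminal cells and 0 and 0 in luminal progenitors. The cluster sums of fMaSC thus lay above all adult libraries for Hoxc and Hoxd, at sums under 1 RPKM. For Hoxa the sums overlapped, at 0.0852 and 0.762 RPKM in fMaSC and 0 and 1.03 RPKM in basal cells, the higher of these from Hoxa5 alone.

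Counted over the 39, Hoxb2, Hoxc6, Hoxc8, Hoxc9, Hoxd8 and Hoxd10 had both fMaSC libraries above all 6 adult ones. These 6 were 6 of the 24 members above 0 in the table, and 29.1% of the 18300 genes above 0 in at least 1 library did the same. Hoxc10, which patterns lumbar motor neurons, had the highest level among Hoxc genes with 0.301 and 0.199 RPKM in fMaSC, against 0 in the adult libraries except 0.233 RPKM in mature luminal library 1. Without a filter on low values, Hoxc10, Hoxd8 and Hoxd10 joined Hoxb2 as higher in fMaSC than in basal cells (4 of 24, against 27.3% of all genes). On the same footing Hoxb2, Hoxd8 and Hoxd10 were called against luminal progenitors (3 of 24, against 25.9%), and Hoxd10 alone against mature luminal cells (1 of 24, against 29.9%).

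The number of genes detected and the fibroblast marker sums were also higher in fMaSC than in each adult library. The number of genes at 1 RPKM or more was 11320 and 11349 in the fMaSC libraries, against 10056 to 10946 in the adult libraries. Of 8 fibroblast markers none was at 0 in any group, and they summed to 84.1 and 101 RPKM in fMaSC, against 56.3 and 59.0 RPKM in basal cells, 25.6 and 7.49 RPKM in mature luminal cells and 13.6 and 24.96 RPKM in luminal progenitors. The 5 fat markers summed to between 202 and 229 RPKM in fMaSC, between 65.8 and 233 RPKM in basal cells, between 6.42 and 49.0 RPKM in mature luminal cells and between 17.3 and 30.1 RPKM in luminal progenitors, with Plin1 and Retn at 0 in each adult group. Of 7 fibroblast markers tested, 5 were higher and Dcn was lower in fMaSC than in basal cells (36.9% and 23.4% of all genes). Sums of the 5 immune markers ran the other way, at 7.34 and 9.15 RPKM in fMaSC, against 12.3 to 71.6 RPKM in adult libraries. Sums of the 5 endothelial markers overlapped, at 18.3 and 13.4 RPKM in fMaSC and 1.92 to 43.9 RPKM in adult libraries. The part of these differences in the Hox values was not tested.

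No tested Hox gene was called between adult groups by limma. In basal cells against luminal progenitors 0 of 2 were called, where 21.0% of genes were called higher and 14.5% lower. In basal against mature luminal cells 0 of 2 were called, where 28.8% were higher and 19.8% lower. In mature luminal cells against luminal progenitors 0 of 2 were called, where 8.63% were higher and 13.4% lower. None of these 6 tests had an unadjusted p under 0.05. The differences of Hoxb2 were -0.0021 (SE 0.31), -0.44 (SE 0.31) and 0.44 (SE 0.31) on the log2 scale in the same order, and those of Hoxb3 were 0.43, -0.03 and 0.46 (SE 0.25 each). Mature luminal cells lay above luminal progenitors in both libraries for Hoxb2 and Hoxb3, 2 of the 24 members above 0, and 24.6% of all genes did so. Without basal library 1, only Hoxb2 passed the filter, and the remaining basal library (0.665 RPKM) lay below both mature luminal libraries (2.29 and 1.91 RPKM).

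**Figure D2:**
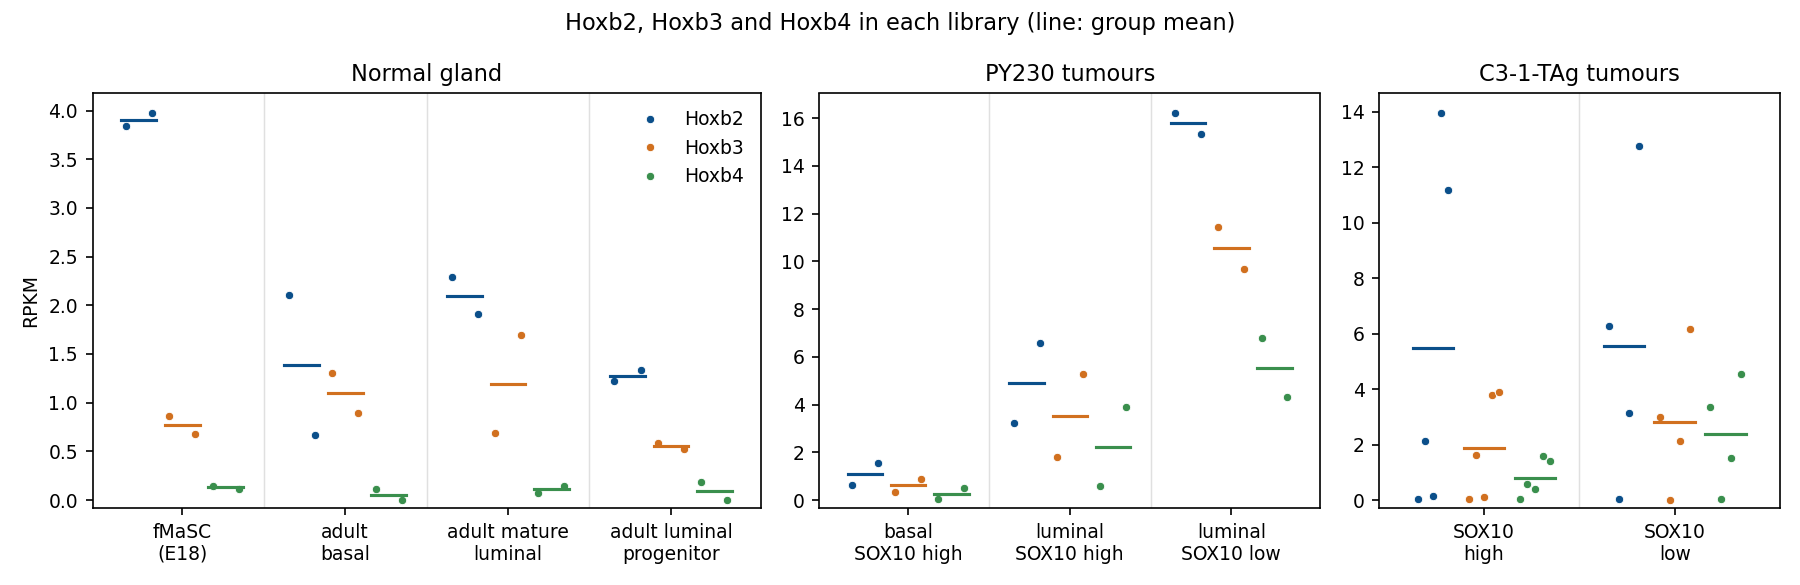
RPKM of Hoxb2, Hoxb3 and Hoxb4 in each library (points) with group means (lines), 1 panel per table with its own linear axis. In PY230 tumours all 3 genes run low in basal SOX10 high, middle in luminal SOX10 high and high in luminal SOX10 low cells, and in C3-1-TAg tumours the 2 groups overlap.

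In PY230 tumours the Hoxb genes 2 to 4 were lowest in basal SOX10 high cells, intermediate in luminal SOX10 high cells and highest in luminal SOX10 low cells. Hoxb2 had 0.610 and 1.54 RPKM in basal SOX10 high cells and 3.22 and 6.57 RPKM in luminal SOX10 high cells, against 16.2 and 15.4 RPKM in luminal SOX10 low cells. Hoxb3 had 0.346 and 0.894 RPKM in basal SOX10 high cells and 1.81 and 5.28 RPKM in luminal SOX10 high cells, against 11.4 and 9.67 RPKM in luminal SOX10 low cells. Hoxb4 had 0.030 and 0.488 RPKM in basal SOX10 high cells and 0.599 and 3.88 RPKM in luminal SOX10 high cells, against 6.78 and 4.31 RPKM in luminal SOX10 low cells. For all 3 genes no library of 1 fraction overlapped another fraction. Of the 19547 genes above 0, basal SOX10 high lay below luminal SOX10 high cells in 38.8% and below luminal SOX10 low cells in 39.2%. Luminal SOX10 high lay below luminal SOX10 low cells in 27.7%. The share of genes with all 3 fractions apart was not computed. Within luminal SOX10 high cells library 2 was the higher for each of Hoxb2, Hoxb3 and Hoxb4, and within basal SOX10 high cells library 2 was too. Luminal markers had the same order of fractions: Krt8, Krt18 and Krt19 summed to 252 and 452 RPKM in basal SOX10 high cells and 2987 and 4412 RPKM in luminal SOX10 high cells, against 9007 and 8474 RPKM in luminal SOX10 low cells. The 5 mature luminal markers summed to 44.9 and 74.0 RPKM in basal SOX10 high cells and 332 and 590 RPKM in luminal SOX10 high cells, against 1271 and 1672 RPKM in luminal SOX10 low cells. The part of this shift in luminal markers in the Hoxb order was not tested. The 3 comparisons share libraries, so they are not independent of each other.

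Against luminal SOX10 low cells, basal SOX10 high cells had all 3 genes lower. Hoxb2 fell by 3.05 on the log2 scale (SE 0.32, adjusted p = 3.66e-04), Hoxb3 by 2.85 (SE 0.38, adjusted p = 9.47e-04) and Hoxb4 by 2.38 (SE 0.51, adjusted p = 0.00732). These were 3 of 3 members tested, where 33.4% of the 13136 genes tested were called lower and 21.8% higher. The median over the members tested was -2.85, and over all genes tested -0.16. Hoxb3 and Hoxb4 passed the filter through luminal libraries alone, where they were higher, so this median does not describe the Hox genes as a set. Without a filter it was 0.086 over the 34 members above 0 and -0.027 over all genes, and the calls of that fit are given below. Hoxb2 and Hoxb3 were called in every alternative run, and Hoxb4 in all but that without basal SOX10 high library 1 (adjusted p = 0.0524).

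Between the 2 SOX10 high fractions, basal cells had less Hoxb2 and Hoxb3 than luminal cells. The differences were -1.48 for Hoxb2 (SE 0.32, adjusted p = 0.0114), -1.39 for Hoxb3 (SE 0.38, adjusted p = 0.0253) and -1.17 for Hoxb4 (SE 0.51, adjusted p = 0.107). The median was -1.39 over the 3 members tested and -0.21 over all genes. Without a filter on low values it was 0.098 over the 34 members above 0 and -0.052 over all genes. Of the 3 members tested with the filter, 2 were called lower, where 28.2% of all genes were called lower and 13.8% higher. Without basal SOX10 high library 1 neither was called (adjusted p 0.0705 for Hoxb2 and 0.138 for Hoxb3). Hoxb3 also lost its call without basal SOX10 high library 2 (0.0571), without luminal SOX10 high library 2 (0.0563) and without a filter on low values (0.0601), while all 3 members were called without luminal SOX10 high library 1.

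Within luminal cells, the SOX10 high fraction had less Hoxb2 and Hoxb3 than the SOX10 low fraction. The differences were -1.57 for Hoxb2 (SE 0.32, adjusted p = 0.0212), -1.46 for Hoxb3 (SE 0.38, adjusted p = 0.0375) and -1.20 for Hoxb4 (SE 0.51, adjusted p = 0.137). The median was -1.46 over the 3 members tested and 0.01 over all genes. Without a filter on low values it was 0.016 over the 34 members above 0 and 0 over all genes. Of the 3 members tested with the filter, 2 were called lower, where 10.0% of all genes were called lower and 12.6% higher. Both calls were lost without luminal SOX10 high library 1 (adjusted p 0.0806 for Hoxb2 and 0.105 for Hoxb3), without luminal SOX10 low library 1 (0.0798 and 0.137) or 2 (0.0888 and 0.116), and without a filter on low values (0.0524 and 0.0853). Hoxb3 also lost its call with a pseudocount of 0.1 (0.0728).

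The Hoxa genes ran in the opposite order to Hoxb2, Hoxb3 and Hoxb4, at lower levels. Summed over the 11 Hoxa genes, the level was 5.17 and 7.0 RPKM in basal SOX10 high cells and 2.14 and 2.10 RPKM in luminal SOX10 high cells, against 0.232 and 0.426 RPKM in luminal SOX10 low cells. Summed over the 10 Hoxb genes it was 1.69 and 3.48 RPKM in basal SOX10 high cells and 5.70 and 16.2 RPKM in luminal SOX10 high cells, against 34.7 and 29.7 RPKM in luminal SOX10 low cells. The Hoxa genes thus made up between 54.5 and 63.6% of all Hox RPKM in basal SOX10 high cells, between 10.8 and 25.7% in luminal SOX10 high cells and between 0.654 and 1.38% in luminal SOX10 low cells. The Hoxb genes made up between 20.8 and 27.1%, between 68.7 and 83.4% and between 96.0 and 97.8% in the same order. Hoxb2 to Hoxb4 alone made up between 12.1 and 22.8%, between 67.8 and 81.0% and between 95.0 and 97.2%.

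**Figure D3:**
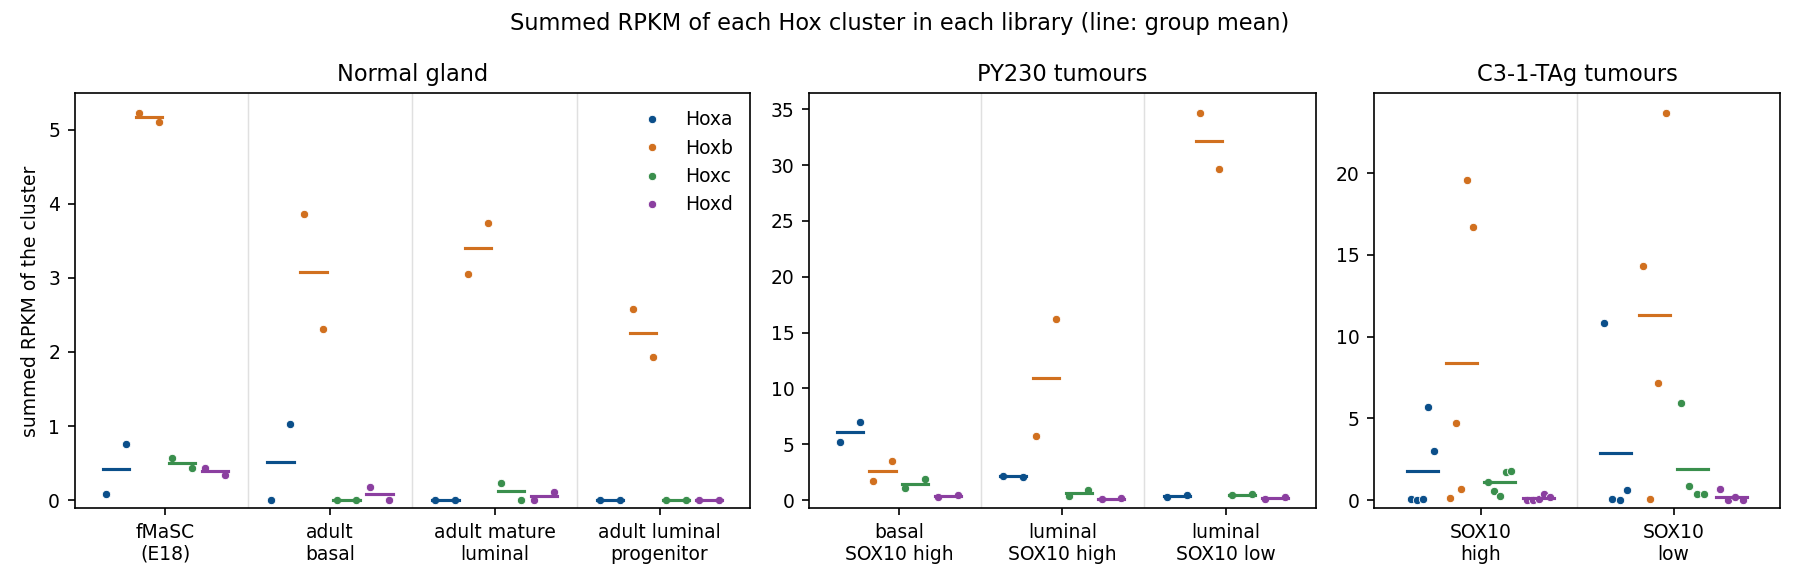
Summed RPKM of the Hoxa, Hoxb, Hoxc and Hoxd genes in each library (points) with group means (lines), 1 panel per table with its own linear axis. In PY230 tumours the Hoxa sum falls across the 3 fractions, left to right, while the Hoxb sum climbs to 34.7 and 29.7 RPKM in luminal SOX10 low cells.

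The Hoxa levels were spread over many genes. Hoxa5, which acts in lung and axial skeleton development, had 0.855 and 1.73 RPKM in basal SOX10 high cells and 0.577 and 0.538 RPKM in luminal SOX10 high cells, against 0.080 and 0.107 RPKM in luminal SOX10 low cells. Hoxa7 had 0.979 and 1.01 RPKM in basal SOX10 high cells and 0.117 and 0.118 RPKM in luminal SOX10 high cells, against 0 and 0 in luminal SOX10 low cells. Hoxa4 had 0.600 and 1.56 RPKM in basal SOX10 high cells and 0.075 and 0.301 RPKM in luminal SOX10 high cells, against 0.033 and 0.087 RPKM in luminal SOX10 low cells. None of the 3 fractions overlapped another for Hoxa5 and Hoxa7, and for Hoxa4 the 2 luminal fractions overlapped. Shares of all genes without overlap, for each pair of fractions, are given with the counts below. Hoxa2, a selector gene of the head and neck skeleton, had 0.603 and 0.541 RPKM in basal SOX10 high cells, against 0.032 and 0.129 RPKM in luminal SOX10 high and 0.057 and 0 RPKM in luminal SOX10 low cells. Hoxa6 had 0.767 and 0.538 RPKM in basal SOX10 high cells and 0.409 and 0.461 RPKM in luminal SOX10 high cells, against 0 and 0 in luminal SOX10 low cells. Hoxa10, which patterns the uterus, overlapped between the SOX10 high fractions, at 0.707 and 0.560 RPKM in basal and 0.738 and 0.255 RPKM in luminal cells, against 0.023 and 0.093 RPKM in luminal SOX10 low cells.

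**Figure D4:**
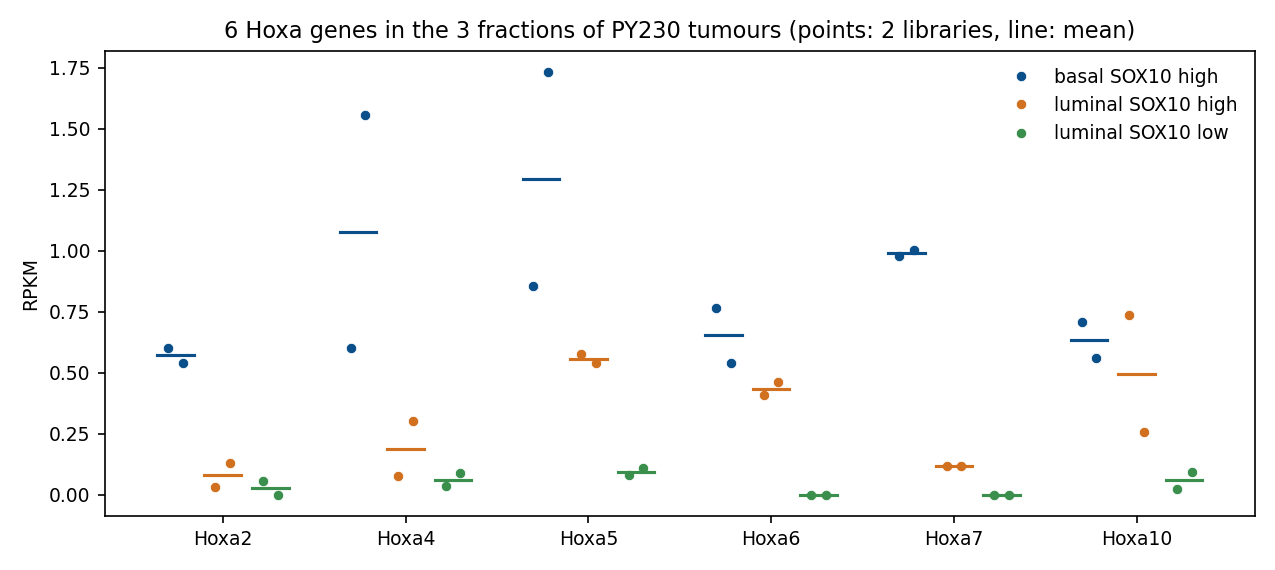
RPKM of Hoxa2, Hoxa4, Hoxa5, Hoxa6, Hoxa7 and Hoxa10 in the 3 fractions of PY230 tumours, with 2 libraries (points) and their mean (line) for each fraction. The genes other than Hoxa10 are highest in basal SOX10 high cells, without overlap, and Hoxa10 overlaps between the SOX10 high fractions (0.707 and 0.560 RPKM in basal, 0.738 and 0.255 RPKM in luminal cells).

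No Hoxa gene passed the filter of 1 RPKM in 2 libraries, so the following counts come from non-overlap and from the fit without a filter. Basal SOX10 high lay above luminal SOX10 low cells in both libraries for 9 of 11 Hoxa and 17 of the 34 Hox genes above 0, and 29.9% of the 19547 genes above 0 did so. It lay below for 5 of 34, all of them Hoxb genes, against 39.2% of all genes. Against luminal SOX10 high cells it lay above for 7 of 11 Hoxa and 16 of 34 Hox genes (21.5% of all genes) and below for 4 of 34 (38.8%). The Hoxb cluster was split, since Hoxb6, Hoxb8 and Hoxb9 were higher in basal SOX10 high cells in both comparisons, without overlap. Hoxb5 was also higher than in luminal SOX10 high cells, and these genes had group means under 1 RPKM. Luminal SOX10 high cells lay above luminal SOX10 low cells for 6 of 11 Hoxa and 8 of 34 Hox genes (28.8%), and below for 6 of 34 (27.7%).

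Fitted without a filter, 11 of the 34 members above 0 were called higher in basal SOX10 high than in luminal SOX10 low cells, where 16.3% of all genes were, and 3 lower, where 22.7% were. Among the 11 were Hoxa5, Hoxa7, Hoxa10, Hoxb9, Hoxc9 and Hoxc10. Hoxa7 rose by 0.99 on the log2 scale (SE 0.05, adjusted p = 3.28e-04), Hoxa5 by 1.04 (SE 0.19, adjusted p = 0.00856) and Hoxa4 by 0.93 (SE 0.23, adjusted p = 0.0249). Against luminal SOX10 high cells, 6 of 34 were called higher in basal SOX10 high cells, among them Hoxa2, Hoxa7 and Hoxc10 (10.1% of all genes were), and Hoxb2 was called lower (1 of 34, against 16.9%). Hoxa7 rose there by 0.83 (SE 0.05, adjusted p = 7.10e-04) and Hoxa2 by 0.54 (SE 0.07, adjusted p = 0.00402). Between the luminal fractions only Hoxa6 was called, with a log2 difference of 0.52 (SE 0.08, adjusted p = 0.0292) for SOX10 high over SOX10 low cells (1 of 34, against 5.76% of all genes called higher and 3.59% lower).

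The remaining clusters were low in PY230 tumours. Hoxc genes summed to 1.04 and 1.88 RPKM in basal SOX10 high cells and 0.400 and 0.931 RPKM in luminal SOX10 high cells, against 0.431 and 0.545 RPKM in luminal SOX10 low cells. Hoxc10 led them in the basal cells, with 0.479 and 0.654 RPKM in basal SOX10 high cells and 0.149 and 0.216 RPKM in luminal SOX10 high cells, against 0.079 and 0.035 RPKM in luminal SOX10 low cells. The 3 fractions did not overlap for Hoxc10, with the shares of all genes for each pair of fractions as above. Hoxd genes summed to no more than 0.476 RPKM in any library, with Hoxd8 the highest at 0.299 RPKM in basal SOX10 high library 2.

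Grouped by paralog number, luminal SOX10 low cells held their Hox RPKM almost wholly in numbers 2, 3 and 4, at 15.8 ± 0.656, 10.6 ± 1.25 and 5.66 ± 1.69 RPKM (mean ± SD, n = 2), with no other number above 0.335 RPKM in either library. Basal SOX10 high cells held similar amounts across numbers 2 to 7 and 10, between 0.729 and 2.27 RPKM in each library. Luminal SOX10 high cells had 4.98 ± 2.44 RPKM for number 2, 3.68 ± 2.49 RPKM for number 3 and 2.56 ± 2.46 RPKM for number 4 (SD, n = 2), and the other numbers did not exceed 0.924 RPKM. Numbers 11 to 13 stayed at or under 0.117 RPKM in all 6 libraries.

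Hotairm1, a long non-coding RNA of the Hoxa cluster, had the same order of fractions as the Hoxa sum. It ran from 12.1 to 14.8 RPKM in basal SOX10 high cells and from 1.81 to 2.56 RPKM in luminal SOX10 high cells, against 0 to 0.399 RPKM in luminal SOX10 low cells. It was called higher in basal SOX10 high than luminal SOX10 low cells (log2 difference 3.61, SE 0.23, adjusted p = 5.70e-05), in basal than luminal SOX10 high cells (2.19, SE 0.23, adjusted p = 6.37e-04) and in luminal SOX10 high than luminal SOX10 low cells (1.42, SE 0.23, adjusted p = 0.0115). It was the only 1 of the 12 non-coding and Evx genes of the clusters to pass the filter.

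Cofactor genes split between the fractions. Of 8 genes tested among the PBX, MEIS and PKNOX family, 3 were higher and 5 lower in basal SOX10 high than in luminal SOX10 low cells, where 21.8% of all genes were higher and 33.4% lower. Meis3 fell most (-2.63), with 1.34 to 2.42 RPKM in basal SOX10 high cells, against 16.0 to 16.9 RPKM in luminal SOX10 low cells. In basal against luminal SOX10 high cells 3 were higher and 3 lower (13.8% and 28.2% of all genes), led by Pknox2 (1.62) and Meis3 (-1.18). In luminal SOX10 high against SOX10 low cells 1 was higher and 5 lower (12.6% and 10.0% of all genes), the lower ones led by Meis3 (-1.45). The median over the 8 genes was -0.91, -0.40 and -0.51 in the 3 comparisons.

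Retinoic acid genes also differed. Of the 4 tested among Cdx, retinoic acid receptor and Cyp26 genes, 2 were higher and 2 lower in basal SOX10 high cells against each luminal fraction, with the shares of all genes as above. Cyp26a1, an enzyme that breaks down retinoic acid, rose most, at 7.64 to 8.0 RPKM in basal SOX10 high cells, against 0.160 to 0.362 RPKM in luminal SOX10 high cells and 0 to 0.198 RPKM in luminal SOX10 low cells (log2 differences 2.81 and 3.01). The receptor genes Rara and Rarg fell most, Rara by 0.98 against luminal SOX10 high and Rarg by 1.63 against luminal SOX10 low cells. In luminal SOX10 high against SOX10 low cells Rarg was the 1 gene called, with a log2 difference of -0.79. Of 15 polycomb and trithorax genes, 0 were higher and 9 lower in basal SOX10 high than luminal SOX10 low cells and 0 and 6 against luminal SOX10 high cells, where 33.4% and 28.2% of all genes were lower, led each time by the polycomb gene Cbx7 (-1.34 and -1.14). In luminal SOX10 high against SOX10 low cells 3 were higher and 5 lower (12.6% and 10.0% of all genes), the lower ones led by Phc1 (-0.74).

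Fibroblast, fat and skeletal muscle markers were also highest in basal SOX10 high cells, where the Hoxa genes were highest. The 8 fibroblast markers, none at 0 in any fraction, summed to 186 and 316 RPKM in basal SOX10 high cells and 99.1 and 185 RPKM in luminal SOX10 high cells, against 127 and 63.8 RPKM in luminal SOX10 low cells. Of 7 tested, 4 were called higher in basal SOX10 high than luminal SOX10 low cells, where 21.8% of all genes were. Only 1 of the 7, Dcn, was called higher than in luminal SOX10 high cells, where 13.8% of all genes were. The 5 fat markers, mostly Fabp4, summed to 58.1 and 76.5 RPKM in basal SOX10 high cells and 7.14 and 10.4 RPKM in luminal SOX10 high cells, against 6.50 and 1.3 RPKM in luminal SOX10 low cells. The fat marker Plin1 was at 0 in basal SOX10 high and luminal SOX10 low cells. The 5 immune markers summed to 31.7 and 41.5 RPKM in basal SOX10 high cells and 29.6 and 45.3 RPKM in luminal SOX10 high cells. In luminal SOX10 low cells they summed to 18.1 and 12.2 RPKM. The 2 tested were called higher in each SOX10 high fraction than in luminal SOX10 low cells. Of all genes, 21.8% were called higher there in basal and 12.6% in luminal SOX10 high cells. The 4 skeletal muscle markers summed to 7.65 and 2.15 RPKM in basal SOX10 high cells, against 0.349 to 0.988 RPKM in the luminal fractions. The part of these cells in the Hoxa and Hoxb values was not tested.

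In C3-1-TAg tumours no Hox gene was called between SOX10 high and SOX10 low libraries, and the libraries of each group spread widely. Hoxb2 had 0.053, 2.12, 0.149, 14.0 and 11.2 RPKM in the SOX10 high libraries 1 to 5, against 6.28, 0.020, 3.15 and 12.8 RPKM in the SOX10 low libraries 1 to 4. Hoxb3 had 0.035, 1.62, 0.098, 3.81 and 3.89 RPKM in SOX10 high, against 3.01, 0.010, 2.11 and 6.17 RPKM in SOX10 low libraries. Hoxb4 had 0.023, 0.594, 0.411, 1.57 and 1.42 RPKM in SOX10 high, against 3.37, 0.026, 1.51 and 4.55 RPKM in SOX10 low libraries. The groups overlapped for all 3 genes, and each group held libraries near 0 and libraries above 1 RPKM. The log2 differences were -0.30 for Hoxb2 (SE 0.96), -0.40 for Hoxb3 (SE 0.65) and -0.72 for Hoxb4 (SE 0.48), each with an adjusted p of 1.00.

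Thus 0 of 3 members tested were called by limma, 0 had an unadjusted p under 0.05, and 0.0418% of the 11948 genes tested were called higher and 0% lower. The exact two-sided permutation test, with 126 arrangements and a smallest p of 0.00794, gave 0.778 for Hoxb2, 0.659 for Hoxb3 and 0.238 for Hoxb4. Without a filter 0 of 35 members were called, against 0% of all genes. The 2 groups failed to overlap for 0 of the 35 Hox genes above 0, and SOX10 high lay above SOX10 low libraries in 0.457% of the 19715 genes above 0 and below in 0.573%. These p-values do not show that the groups were alike, since the SEs of Hoxb2 and Hoxb3 were larger than in PY230 tumours (0.32 and 0.38).

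Summed over all 39 genes, the level was 1.31, 5.28, 1.08, 27.4 and 21.7 RPKM in the SOX10 high libraries, against 31.7, 1.02, 7.65 and 24.7 RPKM in the SOX10 low libraries. Low totals came with an unusual leading gene. Hoxc5 led in SOX10 high library 1 (0.996 RPKM) and in SOX10 low library 2 (0.782 RPKM), where the sum of Hoxb2 to Hoxb4 was 0.111 and 0.056 RPKM, and no other library had more than 0.230 RPKM of Hoxc5. In SOX10 high library 3 Hoxb4 led with 0.411 RPKM. Libraries of opposite groups resembled each other across genes: deviations from the group means had r = 0.82 between SOX10 high library 1 and SOX10 low library 2 and r = 0.70 between SOX10 high library 2 and SOX10 low library 3, over 11948 genes of the same libraries. The limma and permutation p-values treat the 9 libraries as independent, which the labels neither state nor deny.

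**Figure D5:**
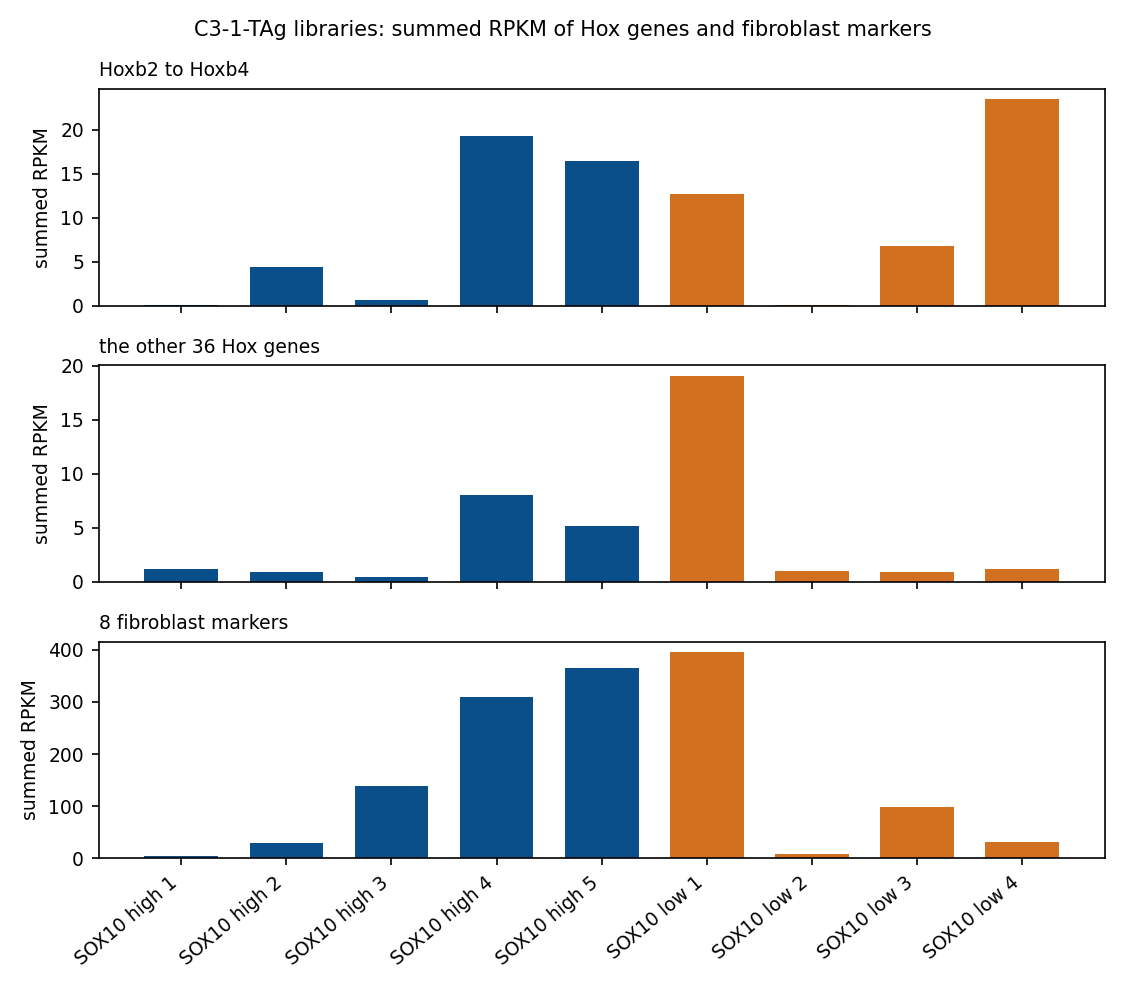
Summed RPKM of Hoxb2 to Hoxb4 (top), of the other 36 Hox genes (middle) and of 8 fibroblast markers (bottom) in each C3-1-TAg library, bars from 0, SOX10 high in blue and SOX10 low in orange. SOX10 high libraries 4 and 5 and SOX10 low library 1 are high in all 3 panels, SOX10 high library 1 and SOX10 low library 2 are low in all 3, and SOX10 low library 4 is high for Hoxb2 to Hoxb4 alone (23.5 RPKM).

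The Hoxa genes were concentrated in 3 of the 9 libraries, and the Hoxc sum was also highest in these 3. Hoxa sums were 0.075, 0, 0.071, 5.67 and 3.02 RPKM in SOX10 high, against 10.8, 0.087, 0 and 0.607 RPKM in SOX10 low libraries. Hoxc sums were 1.11, 0.541, 0.258, 1.74 and 1.80 RPKM in SOX10 high, against 5.94, 0.881, 0.339 and 0.345 RPKM in SOX10 low libraries. Hoxa3, needed for the thymus and parathyroid, led the Hoxa genes with 0.011, 0, 0.032, 2.71 and 1.46 RPKM in SOX10 high, against 2.88, 0, 0 and 0.265 RPKM in SOX10 low libraries. Hoxc9, which sets the identity of thoracic motor neurons, led the Hoxc genes with 0, 0.428, 0.047, 1.37 and 0.640 RPKM in SOX10 high, against 3.03, 0, 0.149 and 0.147 RPKM in SOX10 low libraries. SOX10 low library 1 stood highest for both genes and had 30 of the 39 members above 0, 11 of them at 1 RPKM or more.

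Fibroblast markers were highest in the same 3 libraries as the Hoxa and Hoxc sums. The 8 fibroblast markers, none at 0 in either group, summed to 4.44, 29.1, 139, 310 and 365 RPKM in SOX10 high, against 396, 7.28, 98.5 and 31.5 RPKM in SOX10 low libraries. The 5 immune markers summed to 760 RPKM in SOX10 low library 1 and to between 7.14 and 91.7 RPKM in the other 8. Both libraries led by Hoxc5 had the lowest fibroblast sums. Hoxb2 to Hoxb4 summed to 0.111, 4.34, 0.658, 19.3 and 16.5 RPKM in SOX10 high, against 12.7, 0.056, 6.78 and 23.5 RPKM in SOX10 low libraries. They were high in the 3 libraries with the highest fibroblast sums and near 0 in the 2 with the lowest, while SOX10 low library 4 had their highest sum and SOX10 high library 3 a low one. The part of these cells in the Hox values was not tested. Of the cofactor, polycomb and retinoic acid genes tested, 0 of 7, 0 of 15 and 0 of 4 were called.

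Of 9 cofactor genes tested in fMaSC, 4 were higher and 0 lower against basal cells, 6 and 0 against luminal progenitors, and 5 and 0 against mature luminal cells, with medians of 0.51, 1.43 and 1.00. Of all genes 36.9%, 35.5% and 41.7% were higher in the same order, and the median of all genes was 0.27, 0.39 and 0.53. Pbx4 led against basal cells (log2 difference 2.66), at 4.82 to 5.91 RPKM in fMaSC, against 0 in both basal libraries. Pbx3 led against luminal progenitors (2.64) and mature luminal cells (3.02), at 8.35 to 8.88 RPKM in fMaSC, against 0.533 to 0.551 RPKM in luminal progenitors and 0.111 to 0.257 RPKM in mature luminal cells. Of 15 polycomb and trithorax genes, 3 passed as higher and 4 as lower for fMaSC over basal cells, 5 and 1 over luminal progenitors and 4 and 2 over mature luminal cells, where 23.4%, 15.0% and 14.7% of all genes were lower. Ezh2, the methyltransferase of a polycomb complex, led the higher ones each time, at 37.7 to 39.8 RPKM in fMaSC, against 9.64 to 16.8 RPKM in basal cells, 6.66 to 8.32 RPKM in mature luminal cells and 7.06 to 8.14 RPKM in luminal progenitors. Cbx7 led the lower ones each time (-1.71 against basal cells, -1.55 against luminal progenitors, -0.90 against mature luminal cells). Of 4 retinoic acid genes tested, 0, 0 and 1 were higher and none lower, the 1 being Cyp26b1 against mature luminal cells (1.28).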

How the data were processed

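The authors deposited RPKM values per gene in 3 tables, by cell source. FastQC, HISAT2 2.0.5, StringTie 1.3.1c and the build mm9 are named in the submitters' processing notes, without their roles. Per the labels' protocols, cDNA was made with SmartSeq2 (18 PCR cycles), tagmented with Nextera XT (10 more cycles) and read from 1 end, without strand or molecular identifiers. Read length varied, and its value per library is not given in the sources used here. In the C3-1-TAg table all values above 0 exceed 2, so 2 was taken off them. Groups come from the sample titles. Limma 3.58.1 in R 4.3.3 (trend, all groups of a table in 1 fit, no replicate block) was run on log2(RPKM + 1) and tested on simulated data. Python 3.11.15, pandas 2.3.3 and scipy 1.17.1 did the rest. Alternatives were a pseudocount of 0.1, no filter, quantile and median-of-ratios scaling, a replicate block, the C3-1-TAg values as deposited and leaving out each library. RPKM holds no read counts, so no counting interval is given. The members and gene lists were chosen with earlier results of these data known. Named genes are those with a group mean of 5 RPKM or called in a comparison, and the gene of each other list with the largest called change. Other genes were named after their values were seen, and some genes are not reported here by name.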

Additional observations from a re-analysis of the deposited data

Results flagged for a closer look

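Among the C3-1-TAg libraries, a library far from the rest of its group was looked for in 32 sets of values (genes with a library at 1 RPKM or more, and cluster sums, each in both groups), and 10 were found, all for SOX10 low library 1. Hoxa5, Hoxa10, Hoxc6 and Hoxc8 entered this check only because that library reached 1 RPKM. The rule's usual rate of about 1 in 20 holds for values not chosen by their level, so it is no yardstick here. The flagged values also share 1 library, so they are not 10 separate events. That library had 1.11 RPKM of Hoxa2, 2.88 RPKM of Hoxa3, 1.05 RPKM of Hoxa4, 2.35 RPKM of Hoxa5 and 1.60 RPKM of Hoxa10, with a summed Hoxa level of 10.8 RPKM. Of the Hoxc genes it had 1.16 RPKM of Hoxc6, 1.19 RPKM of Hoxc8 and 3.03 RPKM of Hoxc9, with a summed Hoxc level of 5.94 RPKM. The next SOX10 low library had 0.607 RPKM of Hoxa and 0.881 RPKM of Hoxc. Its immune marker sum was 760 RPKM and its fibroblast marker sum 396 RPKM, and their part in these values was not tested.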

How the results depend on the processing

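None of the 9 Hox fold changes called changed sign under the alternatives run. Without a filter on low values the number of Hox genes called was 4 for fMaSC against basal cells, 3 against luminal progenitors and 1 against mature luminal cells, and 1 for PY230 luminal SOX10 high against low, 7 for basal against luminal SOX10 high and 14 for basal SOX10 high against luminal SOX10 low cells, since low genes then enter the test. Quantile normalization gave 0, 0 and 1 for the fMaSC comparisons in the same order, median-of-ratios scaling 0 against luminal progenitors, and a pseudocount of 0.1 gave 1 between the PY230 luminal fractions. In these cases the cause was not tested. Leaving out 1 library at a time, the counts ran from 0 to 1 for fMaSC against basal cells, 0 to 0 against luminal progenitors and 0 to 0 against mature luminal cells. They ran from 0 to 1 for basal against mature luminal cells, 0 to 3 between the PY230 luminal fractions, 0 to 3 for basal against luminal SOX10 high, 2 to 3 for basal SOX10 high against luminal SOX10 low cells, and 0 to 0 in the other comparisons. The lone library left in a group of 2 is then assumed to vary like the other groups. Under quantile normalization the share of called genes that were higher in fMaSC was 49.4% against basal cells, 49.6% against luminal progenitors and 50.8% against mature luminal cells, in place of 61.1%, 70.3% and 73.9%, so lower calls outnumbered higher ones against basal cells and luminal progenitors. It was 48.9% for basal cells over luminal progenitors, 46.7% for basal over mature luminal cells, 49.5% for mature luminal cells over luminal progenitors and 46.2% for PY230 basal over luminal SOX10 high cells, in place of 59.3%, 59.2%, 39.1% and 32.9%. Of 396 counts for the other gene lists under alternatives, 337 stayed within 1.5 times and 59 did not.

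The replicate numbers are not said to mark shared animals, and same-numbered libraries correlated at 0.30, -0.20 and -0.26 in the PY230 table. In the C3-1-TAg table they correlated at -0.34, -0.33, -0.07 and 0.20. The closest libraries of opposite groups there had unlike numbers, SOX10 high 1 with low 2 (0.82) and high 2 with low 3 (0.70). A block by number does not pair those libraries. A replicate block left each count of Hox genes as it was, 1, 1 and 0 for the fMaSC comparisons, 2, 2 and 3 for the PY230 comparisons and 0 elsewhere. With the PY230 luminal SOX10 low numbers crossed, chosen after seeing the data, 3 were called in each comparison that uses those libraries. Calls over all 13136 genes tested also rose. Between the luminal fractions they went from 1654 higher and 1320 lower to 2055 and 1751. For basal SOX10 high against luminal SOX10 low cells they went from 2865 and 4389 to 3124 and 4647. Groups of 2 libraries, RPKM without counts and levels under 1 RPKM limit what can be told for 34 to 37 of the 39 genes.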

Other observations

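Among adult cells, of 9 cofactor genes 3 passed as higher and 0 as lower in basal cells against luminal progenitors, led by Pbx3 (log2 difference 1.55), and 2 were higher and 2 lower in basal than mature luminal cells, the lower ones led by Meis1 (-1.39). In mature luminal cells against luminal progenitors 2 were higher, led by Meis1 (1.60), and 1 was lower. Of 15 polycomb and trithorax genes, 5 passed as higher in basal cells than luminal progenitors, led by Kmt2a (1.34), and 4 higher than in mature luminal cells, led by Men1 (1.56), with 0 lower in both. Kmt2a, the trithorax methyltransferase that maintains Hox expression, ran from 29.5 to 30.0 RPKM in basal cells, against 11.4 to 16.3 RPKM in mature luminal cells and 10.8 to 11.5 RPKM in luminal progenitors. In mature luminal cells against luminal progenitors 0 were higher and 1 lower, Rnf2 (-0.87). Of 4 retinoic acid genes tested, 0 were called in these 3 comparisons. The shares of all genes called were 21.0% up and 14.5% down for basal cells against luminal progenitors, 28.8% and 19.8% in basal against mature luminal cells, and 8.63% and 13.4% in mature luminal cells against luminal progenitors.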
